A study of Schizosaccharomyces pombe with 4 samples.

Results

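The telomere-proximal tiles of the fission yeast genome were examined on 4 tiling arrays that mapped the telomere proteins Taz1 and Rif1. They comprised the tiles of pNSU plasmid clones and the outermost tiles of chromosome I, taken by the clone or position in the probe name and not by any measured value. Of 41551 non-control probes, 250 were members: 129 lay in 9 pNSU clones, 63 at the left end of chromosome I (position below 20000) and 58 at its right end (from the tile at 5555100 outward). Positions are those in the probe names of the array, and no source used here names their genome build.

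ChIP-chip, in which immunoprecipitated chromatin is hybridised to a tiling array, recovers the DNA bound to a protein and reads its position from short probes laid along the genome. Log-phase cells grown in rich YEA medium at 30 °C were fixed with 3% paraformaldehyde, their DNA was sheared to between 500 and 1000 bp, and the recovered DNA was amplified by random-primed PCR. Immunoprecipitated (IP) DNA carried Cy5 and whole-cell extract (WCE) DNA carried Cy3 on a custom Agilent array of 60-base probes spaced by 300 bp. Taz1_wt was wild-type cells with an antibody raised against recombinant Taz1, and Taz1_L593F was cells with the taz1 allele L593F (mut5) and that same antibody. Taz1_GFP was cells whose Taz1 carries GFP with an antibody against GFP, and Rif1_Myc was cells whose Rif1 carries Myc with an antibody against Myc. Each group was 1 array on a slide of its own, so group cannot be told apart from slide or from any difference in antibody batch. No replicate error exists and no difference was tested. A level is the log2 ratio of IP over WCE signal minus the median of its array, and interquartile ranges (IQR) describe the spread over tiles, which are not replicates and share DNA fragments with their neighbours.

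Telomeres of this yeast end in arrays of short G-rich repeats, which Taz1, the fission yeast counterpart of human TRF1 and TRF2, binds as double-stranded DNA. Taz1 recruits Rap1 and Rif1. Rap1 links it through Poz1 to Tpz1 and Pot1 on the single-stranded end, and Rif1 counts among the proteins that control telomere length and the timing of replication origins. Inside the repeats lie subtelomeres, stretches of related sequence shared among chromosome ends, with genes such as tlh1, a RecQ-type helicase gene. pNSU plasmids carry cloned telomere-adjacent DNA. The sequences of the clone tiles were not used here, so no clone tile could be placed on the reference or matched to a chromosome end.

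The end tiles were placed on the reference assembly ASM294v3 to read the DNA beneath them. WCE signal followed the GC content of the tile best with a shift of 0 bp at the left end (r = 0.644 over 63 tiles). At the right end the best shift was 4350 bp (r = 0.533 over 57 tiles). Among shifts more than 300 bp away from these, the best were −350 bp (r = 0.555) and 4700 bp (r = 0.317). The right end thus had the lower r but the wider gap to the next shift, and its outermost tile ran past the reference. Placement and gene names are uncertain at both ends. Values at nearer shifts are not given here, so the placement is not shown to be exact to 1 tile. The bases and words given for a tile hold only as placed. In the reference, bases 8588 to 12695 of the left end are 99.6% identical to the right end of chromosome I, and bases 15833 to 22113 are 97.5% identical to it. Bases 1 to 12695 are also 99.8% identical to the right end of chromosome II, and bases 15833 to 22113 are 97.0% identical to it. A probe in either stretch can therefore take up DNA of several ends.

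The highest level at each end was found on Taz1_GFP, at the tile from 18600 on the left and at the tile from 5566800 on the right. The reference bases under these tiles are shown because the profiles of both ends turn on them (ASM294v3, plus strand, chrI:18601-18900 and chrI:5571151-5571450). They hold 31.7% and 25% GC. On Taz1_wt the highest left tile was instead the one from 18900, at 3.56 against 3.43 at 18600.
Left summit tile: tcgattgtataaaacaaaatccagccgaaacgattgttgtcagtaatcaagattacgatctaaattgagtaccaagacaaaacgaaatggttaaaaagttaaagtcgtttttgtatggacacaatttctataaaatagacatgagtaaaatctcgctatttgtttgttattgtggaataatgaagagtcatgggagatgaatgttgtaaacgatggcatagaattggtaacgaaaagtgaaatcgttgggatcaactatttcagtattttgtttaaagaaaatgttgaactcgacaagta
Right summit tile: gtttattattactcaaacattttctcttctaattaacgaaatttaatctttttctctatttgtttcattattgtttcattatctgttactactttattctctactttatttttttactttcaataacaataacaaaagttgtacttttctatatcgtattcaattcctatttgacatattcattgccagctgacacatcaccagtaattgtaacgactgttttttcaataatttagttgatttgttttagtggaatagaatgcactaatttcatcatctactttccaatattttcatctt
Neither tile holds the telomere-repeat word GGTTACA, its shorter form GGTTAC or the word TTACGG on either strand, which is why no base above is in capitals.

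GGTTAC lies inside GGTTACA and overlaps TTACGG by 4 letters, so the words are not counted as separate sites. Such words occur near the left summit, as GGTTACGG in chrI:18886-18993 and as GGTTACA in chrI:19216-19323, and these stretches are shown with the words in capitals (plus strand). An identical copy of the first lies at the right end on the minus strand (chrI:5572399-5572506, 108 of 108 bases), and so does one of the second (chrI:5572069-5572176, 108 of 108 bases). A stretch at the tlh1 side of the left end is shown beside them (chrI:1272-1379, plus strand).
Left, chrI:18886-18993: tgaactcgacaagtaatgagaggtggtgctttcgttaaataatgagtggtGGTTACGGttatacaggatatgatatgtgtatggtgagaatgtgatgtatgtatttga
Left, chrI:19216-19323: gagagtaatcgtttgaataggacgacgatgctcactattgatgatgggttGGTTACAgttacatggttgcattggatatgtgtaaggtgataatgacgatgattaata
Right, chrI:5572399-5572506, minus strand: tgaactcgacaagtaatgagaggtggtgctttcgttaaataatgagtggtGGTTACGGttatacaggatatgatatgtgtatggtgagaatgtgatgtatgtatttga
Left, chrI:1272-1379: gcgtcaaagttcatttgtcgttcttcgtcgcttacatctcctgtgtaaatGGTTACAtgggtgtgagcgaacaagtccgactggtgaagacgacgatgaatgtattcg
The words were about as common under the end tiles as in 41905 windows of 300 bases over the genome: GGTTAC was in 7.5% of 120 placed end tiles against 7.26% of windows, GGTTACA in 3.33% against 2.49%, and TTACGG in 7.5% against 7.76%. A match describes the letters and not a bound site.

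The pNSU clones held the tiles with the highest levels among the members, and a smaller number of tiles that stayed below 2-fold. Probe names carry an ending (suffix), m or f in the clones, whose meaning is not stated in the sources used here. The 88 tiles with the ending m had a median level of 4.14 (IQR 3.97 to 4.37) on Taz1_wt and 4.75 (4.46 to 5.08) on Taz1_GFP. On Rif1_Myc their median was 3.40 (3.27 to 3.59), and on Taz1_L593F it was 1.87 (1.75 to 2.11). Every one of the 88 reached 2-fold on Taz1_wt, Taz1_L593F and Rif1_Myc, and so did all 85 measured on Taz1_GFP, where 3 spots marked as outliers were left out. Over all probes of the array, 0.899% reached 2-fold on Taz1_wt and 1.69% on Taz1_GFP, 0.262% did on Taz1_L593F, and 2.75% did on Rif1_Myc. The lowest of the m tiles still stood at 3.31 on Taz1_wt and 3.70 on Taz1_GFP, at 1.38 on Taz1_L593F, and at 2.85 on Rif1_Myc.

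The 41 clone tiles with the ending f had medians of −0.04 on Taz1_wt and −0.01 on Taz1_L593F, of 0.71 on Taz1_GFP, and of 0.03 on Rif1_Myc. Among them, 8 reached 2-fold on Taz1_wt, on Taz1_L593F and on Rif1_Myc, and 14 did on Taz1_GFP. The same 8 did so on all 4 arrays, and they lie among m tiles in pNSU21, pNSU64, pNSU70 and pNSU77. Their medians were 3.76, 4.25, 1.49 and 2.88 on Taz1_wt, Taz1_GFP, Taz1_L593F and Rif1_Myc, each below the corresponding median of the m tiles. The whole-clone median over 129 tiles (3.99, 4.47, 1.75 and 3.28 in the same order) therefore mixes tiles near 0 with tiles far above it.

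**Figure D1:**
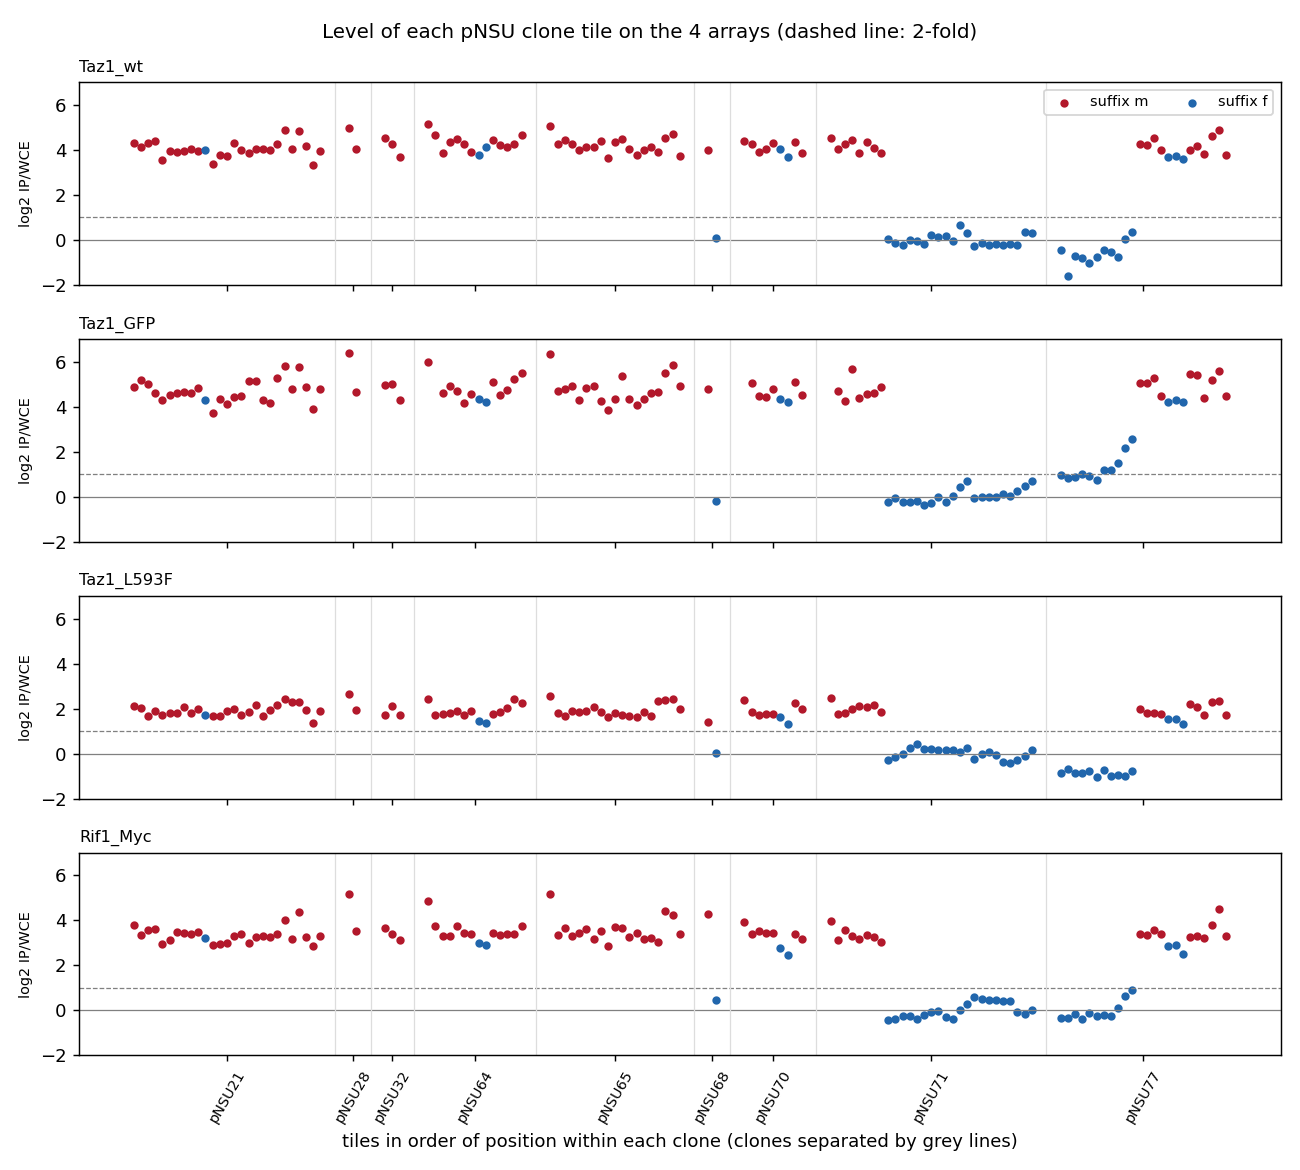
Level (log2 IP/WCE, centred on the array median) of each pNSU clone tile on each array, in order of position within its clone, with tiles of ending m in red and of ending f in blue; the dashed line is 2-fold. All m tiles lie above 2-fold on each array, while the later tiles of pNSU71 and the first tiles of pNSU77 lie near or below 0 on Taz1_wt and Taz1_L593F.

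Clones with m tiles throughout or nearly so resembled one another. pNSU21, with 27 tiles, had a median of 4.0 on Taz1_wt and 4.6 on Taz1_GFP, with 1.87 on Taz1_L593F and 3.30 on Rif1_Myc. pNSU64 (14 tiles) stood at 4.24, 4.68, 1.81 and 3.39 on the same arrays in that order. pNSU65 (19 tiles) stood at 4.13, 4.70, 1.84 and 3.42. These 3 clones differed among themselves by less than the robust standard deviation of each array, which was 0.20 for Taz1_L593F, 0.24 for Taz1_wt, 0.28 for Taz1_GFP and 0.40 for Rif1_Myc. pNSU70 (9 tiles) had medians of 4.03, 4.51, 1.76 and 3.41, and pNSU32 (3 tiles) had 4.27, 4.95, 1.72 and 3.40. pNSU28 had 2 tiles, at 4.98 and 4.04 on Taz1_wt, 6.37 and 4.64 on Taz1_GFP, 2.65 and 1.96 on Taz1_L593F and 5.19 and 3.55 on Rif1_Myc.

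The clones' first tiles, at position 0, included the highest level of any clone tile on each array. At position 0 of pNSU28, pNSU64 and pNSU65 the levels on Taz1_wt were 4.98, 5.15 and 5.06. On Taz1_GFP these 3 tiles stood at 6.37, 5.98 and 6.34. On Taz1_L593F they stood at 2.65, 2.42 and 2.57, and on Rif1_Myc at 5.19, 4.85 and 5.16. Rif1_Myc was above Taz1_wt at position 0 of pNSU28, pNSU65 and pNSU68 (in pNSU68 at 4.30 against 3.99). It was below Taz1_wt at position 0 of pNSU21, pNSU32, pNSU64, pNSU70 and pNSU71. Over all m tiles Rif1_Myc lay below Taz1_wt (median 3.40 against 4.14). The 8 tiles at position 0 (pNSU77 begins at 1200) had medians of 4.52 on Taz1_wt, 2.39 on Taz1_L593F and 4.13 on Rif1_Myc, and of 5.46 over the 6 measured on Taz1_GFP. Other tiles at or near the top of their clone were 6300 in pNSU21, at 4.88 on Taz1_wt and 5.81 on Taz1_GFP, and 10800 in pNSU77, at 4.88 and 5.56.

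The level broke inside pNSU71 and pNSU77, each time between an m tile and an f tile, although the f tiles at 7200 to 7800 of pNSU77 lie among m tiles with no break. The stretches were set apart after their values were seen. In pNSU71 the 8 tiles from 0 to 5400, all m, had a median of 4.18 on Taz1_wt and 4.6 on Taz1_GFP, with 2.02 on Taz1_L593F and 3.29 on Rif1_Myc. The next 21 tiles, from 6000 to 14400 and all f, had medians of −0.06, −0.02, 0.07 and −0.07, with 0 tiles at 2-fold on any array. Across that break, from the tile at 5400 to the tile at 6000, the level went from 3.88 to 0.03 on Taz1_wt, from 4.86 to −0.24 on Taz1_GFP, from 1.83 to −0.27 on Taz1_L593F and from 3.04 to −0.41 on Rif1_Myc. In pNSU68 the tile at 0 (m) stood at 3.99, 4.80, 1.39 and 4.30, and the tile at 300 (f) at 0.06, −0.17, 0.03 and 0.46.

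pNSU77 had a stretch whose sign differed between arrays. The 11 tiles from 1200 to 4800, all f, had a median of −0.72 on Taz1_wt (lowest −1.60, highest 0.33) and of −0.85 on Taz1_L593F (−1.03 to −0.71). On Taz1_GFP the median was 1.03 (0.76 to 2.56), with all 11 tiles above 0, and on Rif1_Myc it was −0.22 (−0.39 to 0.90). The 2 tiles nearest the break, at 4500 and 4800, were the highest of the stretch on Taz1_GFP, at 2.18 and 2.56. They were also its highest on Taz1_wt, at 0.05 and 0.33, and on Rif1_Myc, at 0.64 and 0.90. On Taz1_L593F they were not, at −1.01 and −0.80. The 13 tiles from 5100 to 12000 had medians of 4.0, 5.05, 1.79 and 3.33 on Taz1_wt, Taz1_GFP, Taz1_L593F and Rif1_Myc. WCE signal of the 11 tiles was 1.77 times the array median on Taz1_GFP, 2.56 times on Taz1_wt, 2.88 times on Rif1_Myc and 4.22 times on Taz1_L593F. Tiles at 5700 to 8700 of chromosome III had similar levels on the 4 arrays (−0.71, 1.12, −0.68 and −0.09, 11 tiles), with WCE signal 2.59 to 4.91 times the array median. Whether these stretches share sequence was not tested.

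At the left end of chromosome I the level, a ratio of IP over WCE, was above 0 throughout on the 3 Taz1 arrays. The median over 63 tiles was 2.15 on Taz1_wt (IQR 1.70 to 2.36) and 1.99 on Taz1_GFP (1.41 to 2.30), against 0.66 on Taz1_L593F (0.51 to 0.80) and 1.32 on Rif1_Myc (0.59 to 1.98). All 63 tiles reached 2-fold on Taz1_wt and 54 did on Taz1_GFP, whereas 5 did on Taz1_L593F and 42 did on Rif1_Myc. Of all probes, 0.899%, 1.69%, 0.262% and 2.75% did on Taz1_wt, Taz1_GFP, Taz1_L593F and Rif1_Myc. At 1.5-fold, which 3.29%, 5.19%, 0.758% and 10.3% of all probes reached on Taz1_wt, Taz1_GFP, Taz1_L593F and Rif1_Myc, the left end had 60.3% of its tiles on Taz1_L593F. At 3-fold, which 0.54%, 0.795%, 0.226% and 0.876% of all probes reached, it had 87.3% on Taz1_wt and 41.3% on Rif1_Myc. The lowest tile was above 0 on each Taz1 array, at 1.04 on Taz1_wt, 0.65 on Taz1_GFP and 0.26 on Taz1_L593F, while 5 tiles were below 0 on Rif1_Myc.

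Levels at the left end ran in a plateau, a trough and a peak. In the outer 24 tiles, which hold tlh1, the medians were 2.30 on Taz1_wt and 2.21 on Taz1_GFP, with 0.77 on Taz1_L593F and 1.94 on Rif1_Myc. From 7200 to 9900 they were 1.75, 1.5, 0.60 and 1.21 over 10 tiles. In the trough, from 10200 to 15600 (19 tiles) Taz1_wt stayed at 1.63 and Taz1_GFP at 1.15, while Rif1_Myc was at 0.31 with 0 tiles at 2-fold. The lowest Rif1_Myc tile of this end was 13800, at −0.43, where Taz1_wt was at 1.20, Taz1_GFP at 0.65 and Taz1_L593F at 0.26. From 16800 to 19800 (10 tiles) the levels were up again, at 2.51, 2.44, 0.90 and 2.09 on Taz1_wt, Taz1_GFP, Taz1_L593F and Rif1_Myc. The tile at 18600 stood at 3.43, 4.16, 1.68 and 3.14, and the tile at 18900, which holds the GGTTACGG shown above, at 3.56, 3.78, 1.62 and 2.74. The peak did not stop at the position limit: the tile at 19800 stood at 2.80, 3.19, 0.97 and 1.78, and the tile at 20100, outside it, at 2.43, 3.16, 0.84 and 1.55.

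Among the left-end tiles, 9 had no 25-base word that recurs in the reference, and all of these lay in the trough, from 12900 to 15300. Their median was 1.32 on Taz1_wt, with all 9 at 2-fold or above. On Taz1_GFP it was 0.82, with 2 tiles at 2-fold, and on Taz1_L593F it was 0.46, with 0. On Rif1_Myc the median was −0.02 and 5 of the 9 were below 0. Their IP signal was 1.68, 1.03, 0.70 and 1.23 times the array median on Taz1_wt, Taz1_GFP, Taz1_L593F and Rif1_Myc. Their WCE signal was 0.66, 0.58, 0.52 and 1.22 times, so IP signal was near the median on Taz1_GFP and below it on Taz1_L593F. Over the 19 trough tiles IP signal was 2.22, 1.46, 0.74 and 1.23 times, and WCE signal 0.70, 0.68, 0.60 and 1.21 times. The other tiles of the left end hold words that recur in the reference and can take up DNA of more than 1 place, so copies and places cannot be told apart in their levels.

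The right end had, from the outermost tile inward, a short plateau, a trough on Rif1_Myc, a narrow peak and a low inner stretch. Over 58 tiles the median was 1.37 on Taz1_wt (IQR 0.80 to 2.13) and 1.42 on Taz1_GFP (0.72 to 1.91), against 0.41 on Taz1_L593F (0.23 to 0.64) and 0.40 on Rif1_Myc (−0.03 to 1.11). On Taz1_wt and on Taz1_GFP 34 tiles reached 2-fold, while 3 did on Taz1_L593F and 16 on Rif1_Myc. The outer 6 tiles, from 5573100, had medians of 1.88, 1.67, 0.53 and 1.1 on Taz1_wt, Taz1_GFP, Taz1_L593F and Rif1_Myc. In the next 10 tiles, from 5570100 to 5572800, Taz1_wt stood at 2.02 and Taz1_GFP at 1.58, with all 10 tiles at 2-fold on both, whereas Rif1_Myc stood at 0.44 with 0 of 10.

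A narrow peak followed on all 4 arrays. Over 13 tiles from 5566200 to 5569800 the medians were 2.40, 2.44, 0.95 and 1.90 on Taz1_wt, Taz1_GFP, Taz1_L593F and Rif1_Myc. Its summit at 5566800 stood at 3.39, 4.77, 1.70 and 2.80, and a lesser summit at 5568000, whose tile holds the right copy of GGTTACGG, stood at 3.19, 4.0, 1.55 and 2.72. Inward of the first summit, at 5566200, the levels were 1.41, 1.92, −0.01 and 0.48. The inner 29 tiles had medians of 0.79, 0.70, 0.24 and −0.03. At the position limit the tile at 5555100 stood at 0.14, 0.77, 0.06 and −0.17, and the tile at 5554800, outside it, at 0.63, 1.54, 0.33 and 0.48.

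**Figure D2:**
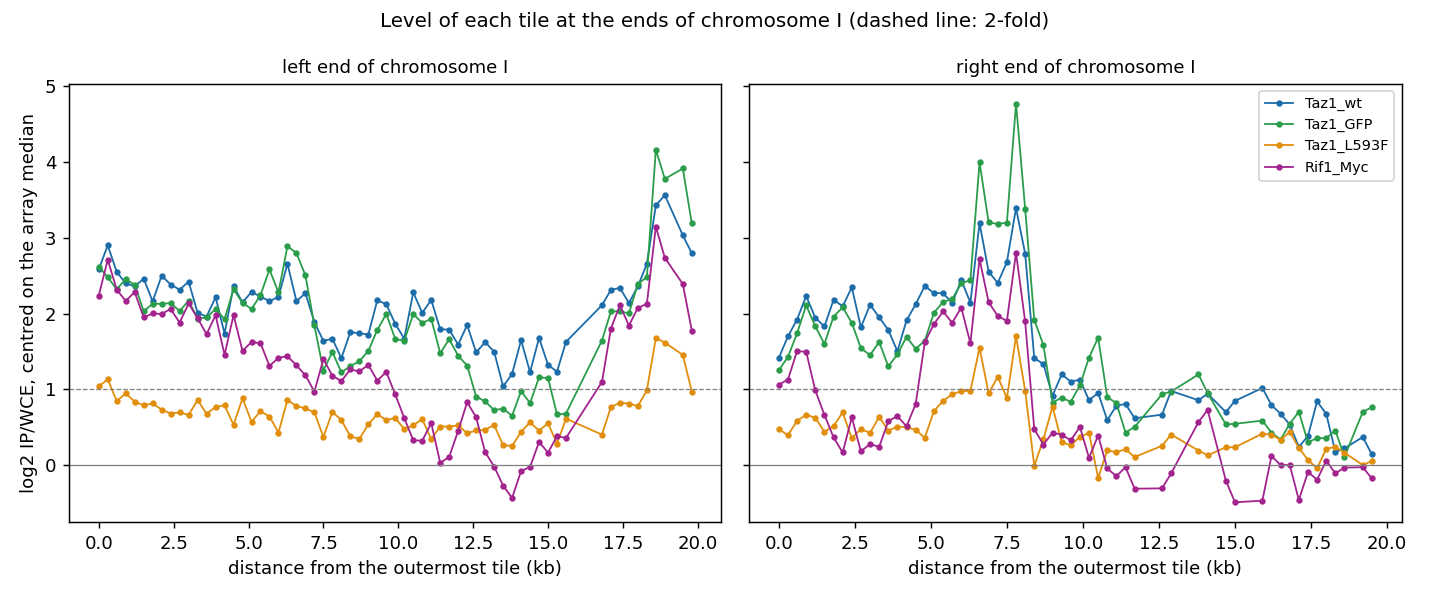
Level (log2 IP/WCE, centred on the array median) of each tile at the left and right end of chromosome I, by distance in kb from the outermost tile, with 1 line per array; the dashed line is 2-fold. Peaks at the tiles 18600 and 18900 on the left and 5566800 on the right stand out on all 4 arrays. Rif1_Myc is near 0 over the left trough while Taz1_wt stays above 2-fold.

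Tiles with near-identical counterparts at the opposite end had similar levels, as far as the placement pairs them. There were 23 such pairs, and the median of right minus left was −0.04, −0.02, −0.01 and −0.16 on Taz1_wt, Taz1_GFP, Taz1_L593F and Rif1_Myc. Levels lay within 0.5 of each other in 20, 21, 22 and 22 of the 23 pairs. The pair at 18600 and 5568300 differed most, at 4.16 and 2.44 on Taz1_GFP and at 3.14 and 1.61 on Rif1_Myc. Pearson's r between ends, in the same order and as a description of tiles that share sequence, was 0.31, 0.68, 0.31 and 0.85 over the 13 pairs of the stretch from 8588 and 0.60, 0.78, 0.79 and 0.58 over the 10 pairs of the stretch from 15833. Probes for such sequence can take up DNA of either end or of the right end of chromosome II. The pairs are therefore not separate measurements of each end.

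Genes at the left end are given by the mean ± SD over their tiles on Taz1_wt, Taz1_GFP, Taz1_L593F and Rif1_Myc, where n counts tiles of 1 array. tlh1, the RecQ-type helicase gene at the outer edge, stood at 2.31 ± 0.26, 2.19 ± 0.20, 0.79 ± 0.15 and 1.98 ± 0.31 (n = 19). The pseudogenes SPAC212.10 (n = 2) and SPAC212.09C (n = 6) had Taz1_wt means of 2.19 and 1.66 and Rif1_Myc means of 1.36 and 1.25. SPAC212.08C, annotated as a GPI-anchored protein gene, stood at 1.67 on Taz1_wt and 0.73 on Rif1_Myc (n = 2). The pseudogene SPAC212.07C, in the trough, stood at 1.36, 0.82, 0.42 and −0.18 (n = 3). SPAC212.06C, annotated as a DNA helicase-like gene, lies at the peak and had the highest means of the left end, at 2.81 ± 0.55, 3.01 ± 1.0, 1.15 ± 0.47 and 2.45 ± 0.60 (n = 3).

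None of the 7 right-end genes with a tile lay under the peak. SPAC750.08C, annotated as an NAD-dependent malic enzyme and nearest the end, stood at 1.68 ± 0.25, 1.47 ± 0.25, 0.49 ± 0.10 and 1.23 ± 0.24 on Taz1_wt, Taz1_GFP, Taz1_L593F and Rif1_Myc (n = 3). SPAC750.07C had 1.64 on Taz1_wt and 0.62 on Rif1_Myc (n = 2), and SPAC750.06C had 1.14 and 0.41 (n = 3). Further in, ftm4 and ftm3, annotated as transmembrane helix proteins, had 0.82 (n = 2) and 0.70 (n = 1) on Taz1_wt and −0.21 and −0.20 on Rif1_Myc. SPAC750.03C, a methyltransferase gene, had 0.79 and 0.12 (n = 1), and the transporter gene SPAC750.02C had 0.48 and −0.07 (n = 4).

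In the clones all m tiles were high and most f tiles were not, and the order of the endings was different at the chromosome ends. At both ends together, the 5 m tiles had medians of 1.1, 0.89, 0.43 and 0.41 on Taz1_wt, Taz1_GFP, Taz1_L593F and Rif1_Myc. The 88 f tiles had 1.86, 1.64, 0.49 and 0.77, and the 28 tiles without an ending, all on the left, had 2.15, 2.05, 0.71 and 1.5. The m tiles were the lowest of the 3 kinds on all 4 arrays here, with 4 of the 5 at the inner part of the right end and 1 on the left, at 3600, where the level was 1.96 on Taz1_wt. On Rif1_Myc the median of the 5 was −0.14 after loess within the array. Elsewhere on the chromosomes, 431 m tiles had medians of 0.61, 0.51, 0.38 and 0.82, and their WCE signal was 3.48 to 4.59 times the array median. In the clones the WCE signal of m tiles was 0.44 to 1.97 times the array median. The median number of reference copies of a tile's 25-base words was 3 for f tiles and 2 for tiles without an ending at the left end, and 3 for f tiles and 5 for the 4 m tiles at the right end.

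Levels were set beside those of the nearest other regions. Chromosome I from 20 to 100 kb inward (528 tiles, both ends) had medians of 0.00, 0.14, 0.06 and −0.30 on Taz1_wt, Taz1_GFP, Taz1_L593F and Rif1_Myc. The outer 20 kb of chromosome II (99 tiles) had 0.62, 0.41, 0.20 and −0.11, and that of chromosome III (88 tiles) had −0.19, 0.92, −0.53 and −0.07. The medians of both ends of chromosome I lay above these on all 4 arrays. Tiles of chromosomes II and III were not placed on the reference, so the sets may lie at unlike distances from the telomere. The last chromosome II tile was at 4510500, and the reference chromosome II is 4539804 bp long. Mitochondrial DNA, which lies outside the nucleus, had −2.38, −1.87, −0.73 and −3.11 (61 tiles). On Taz1_L593F, 109 probes in all reached 2-fold, and 96 of them lay in the clones, 5 at the left end and 3 at the right end. At or below a 2-fold reduction were 2 clone tiles on Taz1_wt and 2 on Taz1_L593F, all in pNSU77, beside 0.41% and 0.077% of all probes. No member was that low on Taz1_GFP or Rif1_Myc, where 0.217% and 0.587% of all probes were.

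**Figure D3:**
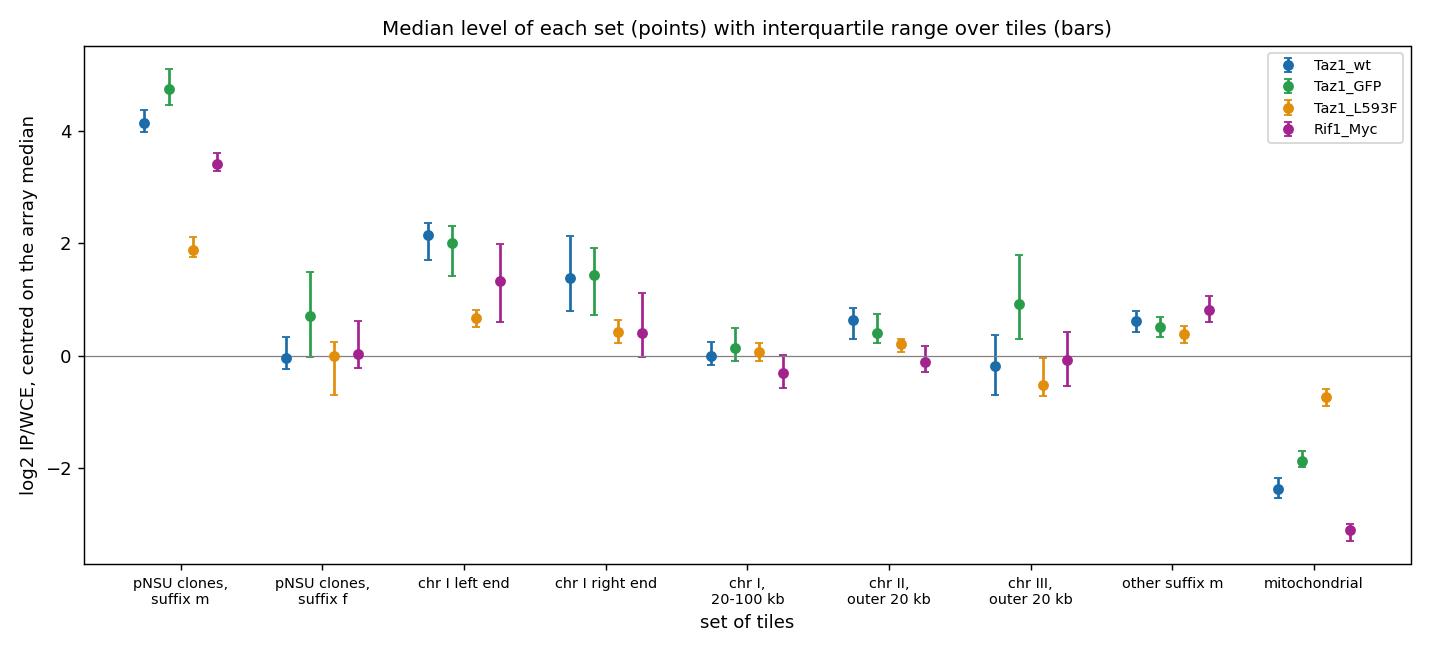
Median level (log2 IP/WCE, points) with the interquartile range over tiles (bars) in 9 sets of tiles on the 4 arrays. The m tiles of the pNSU clones are highest on each array, the ends of chromosome I come next on Taz1_wt, and mitochondrial tiles are lowest.

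The antibodies against Taz1 itself and against its GFP tag were compared tile by tile. In the clones the m tiles stood at 4.75 on Taz1_GFP and 4.13 on Taz1_wt over the 85 measured on both, with a median difference of 0.67 (IQR 0.44 to 0.81) and 83 of 85 higher on Taz1_GFP. Over all clone tiles it was 0.58, and −0.0028 once the arrays were scaled to a common spread, so the direction depends on the scale. At the left end the difference was −0.19 (−0.38 to −0.01), with 48 of 63 lower on Taz1_GFP, and at the right end −0.10 (−0.27 to 0.29), with 36 of 58 lower. Pearson's r between these arrays was 0.93 across the 63 left-end tiles and 0.90 across the 58 right-end tiles. It was 0.96 across 126 clone tiles, 0.79 across the 85 m tiles among them and 0.45 across 41028 other chromosome probes. Neighbouring tiles share fragments, and tiles share copies and probe composition on both arrays.

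Levels were lower in cells with the L593F allele than in wild-type cells at nearly all members outside the low clone stretches. This comparison and the one with Taz1_GFP share the Taz1_wt array, and those with Taz1_wt and Rif1_Myc share the Taz1_GFP array. In the m tiles the median level was 4.14 on Taz1_wt and 1.87 on Taz1_L593F, a difference of −2.20 (IQR −2.46 to −2.06), and 88 of 88 tiles were lower, by 4.6-fold at the median. At the left end the difference was −1.43 (−1.67 to −1.19), lower at 63 of 63 tiles, and at the right end −0.99 (−1.42 to −0.48), lower at 57 of 58. The 9 left-end tiles with 1 reference copy had −0.95, lower at 9 of 9. Clone tiles with the ending f had −0.12, lower at 29 of 41. Mitochondrial tiles, which lie below 0, were higher by 1.63, at 61 of 61, while the 11 tiles of pNSU77 from 1200 to 4800 went from −0.72 to −0.85. With the arrays scaled to a common spread, the difference was −2.01 over all clone tiles, −1.53 at the left end and −1.07 at the right end, against −2.11, −1.43 and −0.99 unscaled.

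**Figure D4:**
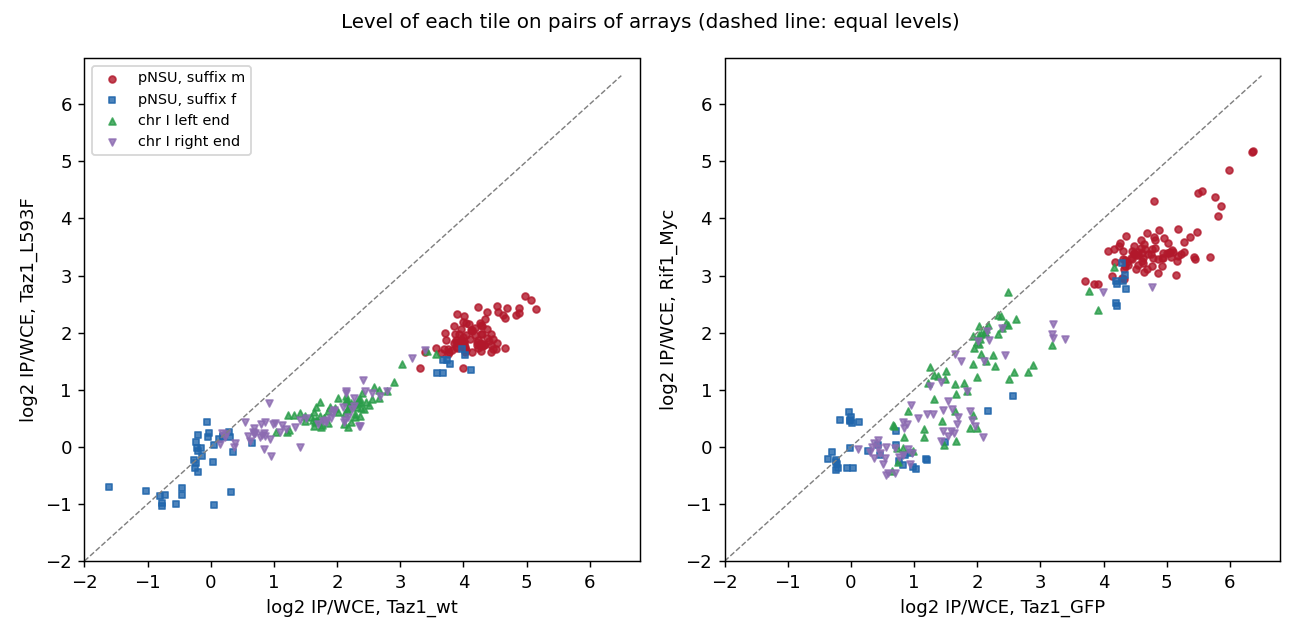
Level (log2 IP/WCE, centred) of each member tile on Taz1_L593F against Taz1_wt and on Rif1_Myc against Taz1_GFP, marked by set; the dashed line marks equal levels. The m tiles of the clones form a cluster far below the line on Taz1_L593F, with medians of 4.14 and 1.87, and most f tiles lie near 0.

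The difference between L593F and wild type in the m tiles of the clones lay in both channels. Relative to its array's median, the red (IP) signal of the m tiles was 13.2 times on Taz1_wt and 8.10 times on Taz1_L593F, and the green (WCE) signal was 0.78 times and 1.97 times. Tile by tile, red fell by 0.89 on the log2 scale (lower at 82 of 88) and green was higher by 1.36 (at 87 of 88). At the left end red fell by 0.84 and green was higher by 0.55, and at the right end red fell by 0.66 and green was higher by 0.24. At the 9 tiles with 1 reference copy, red fell by 1.26 and green fell by 0.23, so there the whole-cell extract did not add to the difference. WCE of the m tiles also differed between the other arrays, at 0.44 times the array median on Taz1_GFP and 1.17 times on Rif1_Myc. A difference in the amount of this DNA in the cells and a difference in its amplification or labelling cannot be told apart here.

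**Figure D5:**
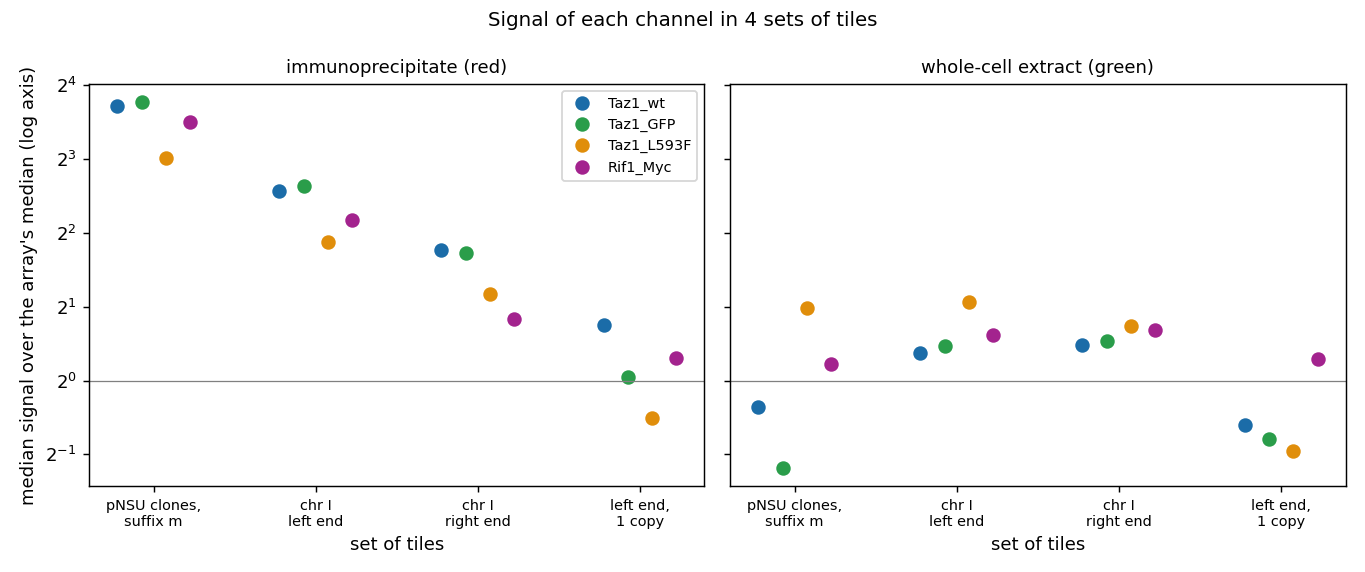
Median signal of the immunoprecipitate (red channel) and of the whole-cell extract (green channel), each divided by the median of its array, in 4 sets of tiles on the 4 arrays, on a log axis. In the m tiles of the pNSU clones the green signal ranges from 0.44 times on Taz1_GFP to 1.97 times on Taz1_L593F.

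Rif1 was compared with Taz1 through the arrays of tagged proteins, which differ in protein, strain and antibody. Levels were lower on Rif1_Myc: in the m tiles the medians were 4.75 on Taz1_GFP and 3.39 on Rif1_Myc over 85 tiles, with a median difference of −1.31 (IQR −1.62 to −1.09) and 85 of 85 lower. At the left end the difference was −0.48 (−1.02 to −0.16), lower at 59 of 63, and at the right end −0.81 (−1.21 to −0.41), lower at 58 of 58. Red signal of the m tiles, relative to the array median, was higher by 0.05 on the log2 scale on Rif1_Myc and green signal by 1.41, so the lower ratio of the m tiles lay in the whole-cell extract. In the clone tiles of ending f, red fell by 0.30 and green was higher by 0.08. At the right end the red signal fell by 0.66 and the green signal by 0.02. Of the tiles at 2-fold on both Taz1_wt and Taz1_GFP, Rif1_Myc was below 2-fold at 12 of 54 on the left and at 15 of 31 on the right, and in 0 of 93 in the clones. No member reached 2-fold on Rif1_Myc without doing so on Taz1_wt. Over all probes, 0.899%, 1.69% and 2.75% reached 2-fold on Taz1_wt, Taz1_GFP and Rif1_Myc. The overlap of these calls over all probes is not given here, so the counts describe the members alone.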

How the data were processed

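Per the file headers, Agilent Feature Extraction 11.5.1.1 read the images and gave each channel a processed intensity, with background removed, spatial trends taken out and the dyes scaled to each other. The deposited log10 ratio is red over green, and the deposited series matrix holds the log2 ratio of the same signals, within 5e-10 at all 41551 probes. From the intensities, log2 of red over green was taken and the array's median over non-control probes subtracted, without loess or quantile steps. Outlier spots were left out (2 on Taz1_L593F, 9 on Rif1_Myc, 31 on Taz1_GFP and 74 on Taz1_wt). On Taz1_wt, Taz1_GFP, Taz1_L593F and Rif1_Myc, spots not well above background numbered 0, 1, 0 and 5, and none was saturated. Median spot signals were 26414, 15976.5, 11008 and 16855 in green and 8365.5, 12307.5, 12011.5 and 5232.5 in red. No source used here names the build of the probe positions.

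Sets were described by medians, interquartile ranges, counts at 2-fold and tile-by-tile differences, in R 4.3.3 (limma 3.58.1) and Python 3.11.15 (numpy 2.4.6, pandas 2.3.3). Homologous stretches came from BLAST 2.17.0, with a minimum of 1000 bp. The set medians were tested on simulated data. The placement was run on simulated signal made of GC content plus noise. That simulation assumes the dependence on GC content, so it cannot show that the placement is right. The members, the gene and word lists and the stretches were chosen with earlier results of these data known. Probes named are the highest and lowest of a clone or end, genes those of the annotation with an end tile; other tiles and stretches were named after their values were seen. Alternatives were normexp (offset 50), series matrix values, loess, scaling to the mean MAD (median absolute deviation), outlier spots kept, dim spots left out, tiles with the ending m left out, 1.5-fold and 3-fold thresholds, a running median of 3 probes and the outermost 10 kb.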

Additional observations from a re-analysis of the deposited data

Results flagged for a closer look

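In the 11 tiles from 1200 to 4800 of pNSU77 the median log2 level had opposite signs on arrays of the same protein: 1.03 on Taz1_GFP, against −0.72 on Taz1_wt and −0.85 on Taz1_L593F. All 11 tiles were above 0 on Taz1_GFP and all 11 below 0 on Taz1_L593F, while 9 of 11 were below 0 on Taz1_wt. With 1 array a group the difference was not tested, and the stretch was set apart after its values were seen.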

How the results depend on the processing

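No paired analysis was possible because each group held 1 array and the labels give no replicate number, and leaving out a replicate was not possible either. Of 591 alternative values of 81 medians, shares and differences, 427 moved by less than the robust SD of the array (shares: by less than their 95% Clopper-Pearson interval, which covers counting error only), 155 moved by more, and 9 changed sign. A change of sign was counted only where the main value was at least that SD away from 0. Smaller ones were not counted as such: without m tiles, pNSU71 went from 0.13 to −0.06 on Taz1_wt. Series matrix values, kept outlier spots, dim spots left out and the running median of 3 moved 0 of them by more. Endings could be left out in only some clones, since pNSU28, pNSU32 and pNSU65 hold m tiles alone. Values counted as moved by more or as changed in sign follow, and the cause was not tested. With normexp, medians on Taz1_wt were 5.11 in all clones, 5.20 in pNSU21, 5.84 in pNSU28, 5.31 in pNSU32, 5.46 in pNSU64, 5.51 in pNSU65, 5.27 in pNSU70, 4.67 in pNSU77, 2.73 in the left end, 2.14 in the right end, 1.41 in end tiles of ending m, 2.49 in end tiles of ending f and 2.77 in end tiles without an ending. Medians on Taz1_GFP were 5.37 in all clones, 5.56 in pNSU21, 6.26 in pNSU28, 5.91 in pNSU32, 5.75 in pNSU64, 5.82 in pNSU65, 2.95 in pNSU68, 5.42 in pNSU70, 5.0 in pNSU77, 2.34 in the left end, 1.77 in the right end, 2.10 in end tiles of ending f and 2.40 in end tiles without an ending. Medians on Taz1_L593F were 2.22 in all clones, 2.74 in pNSU21, 3.18 in pNSU28, 1.95 in pNSU32, 2.35 in pNSU64, 2.41 in pNSU65, 2.44 in pNSU70, 2.04 in pNSU77, 0.87 in the left end and 0.70 in end tiles of ending f. The share at 2-fold or more was 93.7% of the left end on Taz1_GFP, 31.7% of the left end on Taz1_L593F, 82.8% of the right end on Taz1_wt and 17.2% of the right end on Taz1_L593F. The median difference was −2.64 for Taz1_L593F minus Taz1_wt in all clones, −1.87 for Rif1_Myc minus Taz1_GFP in all clones, −1.91 for Taz1_L593F minus Taz1_wt in the left end, −0.52 for Taz1_GFP minus Taz1_wt in the left end, −1.24 for Taz1_L593F minus Taz1_wt in the right end and −1.26 for Rif1_Myc minus Taz1_GFP in the right end. With loess, medians on Taz1_wt were 3.63 in all clones, 3.68 in pNSU21, 4.03 in pNSU28, 3.89 in pNSU32, 3.87 in pNSU64, 3.74 in pNSU65, 1.62 in pNSU68, 3.31 in pNSU77, 1.72 in the left end, 0.69 in end tiles of ending m and 1.73 in end tiles without an ending. Medians on Taz1_GFP were 1.66 in the left end, 0.60 in end tiles of ending m and 1.73 in end tiles without an ending. Medians on Taz1_L593F were 1.51 in all clones, 1.36 in pNSU32, 1.57 in pNSU64, 1.62 in pNSU65 and 1.56 in pNSU70. Medians on Rif1_Myc were 2.56 in all clones, 2.64 in pNSU21, 3.39 in pNSU28, 2.39 in pNSU32, 2.70 in pNSU64, 2.69 in pNSU65, 1.71 in pNSU68, 2.74 in pNSU70, 0.91 in the left end, −0.14 in end tiles of ending m and 1.05 in end tiles without an ending. The share at 2-fold or more was 44.4% of the left end on Rif1_Myc and 13.8% of the right end on Rif1_Myc. The median difference was −1.72 for Rif1_Myc minus Taz1_GFP in all clones. With scaling to the mean MAD, medians on Taz1_wt were 4.70 in all clones, 4.71 in pNSU21, 5.31 in pNSU28, 5.03 in pNSU32, 4.99 in pNSU64, 4.87 in pNSU65, 2.39 in pNSU68, 4.74 in pNSU70, 4.27 in pNSU77, 2.53 in the left end, 1.62 in the right end, 2.19 in end tiles of ending f and 2.53 in end tiles without an ending. Medians on Taz1_L593F were 2.46 in all clones, 2.64 in pNSU21, 3.24 in pNSU28, 2.42 in pNSU32, 2.55 in pNSU64, 2.59 in pNSU65, 1.0 in pNSU68, 2.48 in pNSU70, 1.99 in pNSU77, 0.94 in the left end, 0.69 in end tiles of ending f and 0.99 in end tiles without an ending. Medians on Rif1_Myc were 2.27 in all clones, 2.28 in pNSU21, 3.02 in pNSU28, 2.35 in pNSU32, 2.35 in pNSU64, 2.37 in pNSU65, 1.65 in pNSU68, 2.36 in pNSU70, 1.86 in pNSU77, 0.92 in the left end and 1.03 in end tiles without an ending. The share at 2-fold or more was 39.7% of the left end on Taz1_L593F, 44.4% of the left end on Rif1_Myc and 20.7% of the right end on Taz1_L593F. The median difference was −0.0028 for Taz1_GFP minus Taz1_wt in all clones, −2.21 for Rif1_Myc minus Taz1_GFP in all clones, −0.51 for Taz1_GFP minus Taz1_wt in the left end and −0.95 for Rif1_Myc minus Taz1_GFP in the left end. Without tiles of ending m, medians on Taz1_wt were −0.039 in all clones, 3.95 in pNSU64, 0.059 in pNSU68 and −0.50 in pNSU77. Medians on Taz1_GFP were 0.71 in all clones, 4.29 in pNSU21, 4.27 in pNSU64, −0.17 in pNSU68 and 1.19 in pNSU77. Medians on Taz1_L593F were −0.014 in all clones, 1.40 in pNSU64, 0.028 in pNSU68, 1.45 in pNSU70 and −0.82 in pNSU77. Medians on Rif1_Myc were 0.026 in all clones, 2.96 in pNSU64, 0.46 in pNSU68, 2.62 in pNSU70 and −0.12 in pNSU77. The share at 2-fold or more was 19.5% of all clones on Taz1_wt, 34.1% of all clones on Taz1_GFP, 19.5% of all clones on Taz1_L593F and 19.5% of all clones on Rif1_Myc. The median difference was −0.12 for Taz1_L593F minus Taz1_wt in all clones and −0.60 for Rif1_Myc minus Taz1_GFP in all clones. In the outermost 10 kb, the median on Taz1_wt was 2.11 in the right end. The median on Taz1_GFP was 1.79 in the right end. The median on Rif1_Myc was 0.90 in the right end. At a 1.5-fold threshold, the share past it was 100% of the left end on Taz1_GFP, 60.3% of the left end on Taz1_L593F, 87.9% of the right end on Taz1_wt, 79.3% of the right end on Taz1_GFP and 29.3% of the right end on Taz1_L593F. At a 3-fold threshold, the share past it was 87.3% of the left end on Taz1_wt, 68.3% of the left end on Taz1_GFP, 41.3% of the left end on Rif1_Myc, 44.8% of the right end on Taz1_wt and 41.4% of the right end on Taz1_GFP. At the left-end tiles with 1 reference copy, an alternative chosen after seeing the data, the median on Taz1_wt was 1.32. The median on Taz1_GFP was 0.82. The median on Taz1_L593F was 0.46. The median on Rif1_Myc was −0.016. The number of arrays limits precision, and signal was well above background at all members.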
